A study of Macaca fascicularis with 16 samples.

Results

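Vasoconstrictor receptors of smooth muscle were followed along the aorta of the cynomolgus monkey (Macaca fascicularis). The group held 9 genes chosen by name: the alpha-1 adrenergic receptors ADRA1A, ADRA1B and ADRA1D, the endothelin receptors EDNRA and EDNRB, the vasopressin V1a receptor AVPR1A, the serotonin receptors HTR2A and HTR2B, and the thromboxane receptor TBXA2R. Of these, 8 matched a row of the 32846 rows in the count table by NCBI GeneID, and all 8 passed the filter on low counts that left 15926 genes for testing. EDNRB was not analysed here. The 16 RNA sequencing libraries were of whole aorta from normal young monkeys at baseline, with no other treatment or genotype given. Each of 4 regions had 4 libraries, numbered 1 to 4: the ascending aorta, the descending aorta, and the aorta above (suprarenal) and below (infrarenal) the kidneys. Whether each library is a separate animal is not stated, so p-values measure only the spread between libraries.

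These receptors sit in the membrane of smooth muscle cells and share a signalling route. Bound to noradrenaline, endothelin, vasopressin, serotonin or thromboxane, they activate G proteins of the Gq family, which turn on phospholipase C, and the calcium then released starts contraction through myosin light chain kinase. Many also activate RhoA and its kinase, which hold back the phosphatase that would end the contraction. Arteries differ in which of these receptors they rely on, and subtypes of 1 family can share a ligand and differ in affinity and regulation.

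Levels are given as CPM, the counts of a gene relative to the total counts of its library after scaling with TMM factors. Gene lengths were not used, so CPM compares libraries for 1 gene and not 1 gene with another. All 11 smooth muscle markers, ACTA2, MYH11 and TAGLN among them, had counts in every region. Total counts per library ran from 14402824 to 21407514. After the data were seen, 3 libraries were set apart as of different make-up. Infrarenal 1 had a TMM factor of 0.736 against 0.977 to 1.08 elsewhere. Ascending 4 and suprarenal 3 had the lowest summed smooth muscle markers of all libraries (19692 and 15152 CPM) and the highest summed endothelial markers of their regions (1872 and 3194 CPM). Infrarenal 3 was not set apart, though in its region it had the lowest smooth muscle sum (25019 CPM) and the highest endothelial sum (2813 CPM). Leaving infrarenal 1, ascending 4 and suprarenal 3 out together is 1 of 25 alternatives. Calls between pairs of regions were set against these for the members and the called genes of the related lists. Calls of cell type markers were not.

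EDNRA, the receptor through which endothelin-1 contracts vascular smooth muscle, was the only member called in any pair of regions. For the other members, the lack of a call does not show that their levels were even. The EDNRA level rose 2.53-fold from the ascending to the infrarenal aorta. In the ascending libraries 1 to 4 EDNRA (GeneID 101866294) was at 10.8, 8.76, 10.7 and 16.4 CPM (mean 11.7 ± 3.31, SD, n = 4). Descending libraries held 18.8, 11.7, 10.9 and 13.3 CPM (13.7 ± 3.56, n = 4), and suprarenal libraries 12.0, 15.8, 29.3 and 17.5 CPM (18.6 ± 7.44, n = 4). Infrarenal libraries held 20.6, 31.4, 26.1 and 39.9 CPM (29.5 ± 8.23, n = 4). Every infrarenal library was above every ascending and every descending library, and 1 suprarenal library, number 3, lay among the infrarenal ones.

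In edgeR's quasi-likelihood test the EDNRA difference between infrarenal and ascending aorta was 1.34 on the log2 scale (SE 0.30, 95% interval 0.71 to 1.97, Benjamini-Hochberg adjusted p = 0.0176). Infrarenal minus descending was 1.11 (95% interval 0.48 to 1.73, adjusted p = 0.0817), which did not pass the threshold of 0.05. No neighbours in the order ascending, descending, suprarenal, infrarenal were called. Descending minus ascending was 0.23 (95% interval -0.39 to 0.85, adjusted p = 0.859) and suprarenal minus descending 0.44 (95% interval -0.18 to 1.06, adjusted p = 1.00). Infrarenal minus suprarenal was 0.66, with a 95% interval of 0.05 to 1.28 that lay above 0 and an adjusted p of 0.833 over all genes. The test of any difference among the 4 regions gave an adjusted p of 0.0622. These comparisons share libraries, the infrarenal ones entering 3 of the 6 pairs, and are not independent of each other. In bulk tissue, fewer cells of a type and less RNA per cell cannot be told apart.

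The infrarenal against ascending EDNRA difference lay between 1.16 and 1.69 under all 25 alternatives, with adjusted p from 0.000385 to 0.0723. Its call was lost in 6 of them: with library totals alone (adjusted p = 0.0533) and without ascending 1 (0.0590), ascending 2 (0.0723), ascending 3 (0.0577), infrarenal 2 (0.0504) or infrarenal 4 (0.0622). Without the 3 libraries of different make-up it was larger, at 1.69 (edgeR adjusted p = 0.000818). The infrarenal level was then also above the descending one by 1.25 (adjusted p = 0.00586) and above the suprarenal one by 1.10 (adjusted p = 0.0337). That fit was added after the data were seen. It left out the highest ascending (16.4 CPM), the highest suprarenal (29.3 CPM) and the lowest infrarenal (20.6 CPM) EDNRA value. Larger infrarenal differences follow from that choice, so these calls add no support. Over all genes, calls between infrarenal and ascending aorta rose from 556 to 2099.

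Markers of several cell types also differed between ascending and infrarenal aorta. Of the 8 tested pericyte and mural markers, 3 rose (NOTCH3, MCAM and PDGFRB), beside 3.49% of all genes called in that pair, and the list's median was 0.95. The summed level of the 9 in that list ran from 2021 to 3498 CPM in ascending and from 5252 to 7119.8 CPM in infrarenal libraries, with 0 of the 9 at 0. Summed endothelial markers, 10 of 10 with counts, ran from 491 to 1872 CPM in ascending and from 873 to 2813 CPM in infrarenal libraries. For smooth muscle, 11 of 11 with counts, the ranges were 19692 to 40026 and 25019 to 62032 CPM. Neither of these lists had a called gene by edgeR, and their medians were 0.79 and 0.44. Adipocyte markers, 7 of 7 with counts, summed to 146 to 605 CPM in ascending and 133 to 3786 CPM in infrarenal libraries, with a median difference of 2.70 and none called. Mesothelial markers had a median of -3.89 with 1 of 5 called (KRT8, which fell), and summed to 114 to 1006 and 23.9 to 159.7 CPM, 6 of 6 with counts. Cardiac muscle markers had a median of -2.10 with 1 of 4 called (MYH6, which fell), and summed to 89.9 to 259.9 and 55.1 to 167 CPM, with MYL7 and NPPA at 0 in the ascending libraries. MYH6 was near the floor, at 1.99 ± 2.58 CPM in ascending libraries (0.241 to 5.83 CPM) and at most 0.0655 CPM in infrarenal ones. Schwann and nerve markers, 8 of 8 with counts, had a median of -0.98 with none called, and summed to 467 to 738 and 322 to 426 CPM. The part of these cell types in the EDNRA difference was not tested.

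**Figure D1:**
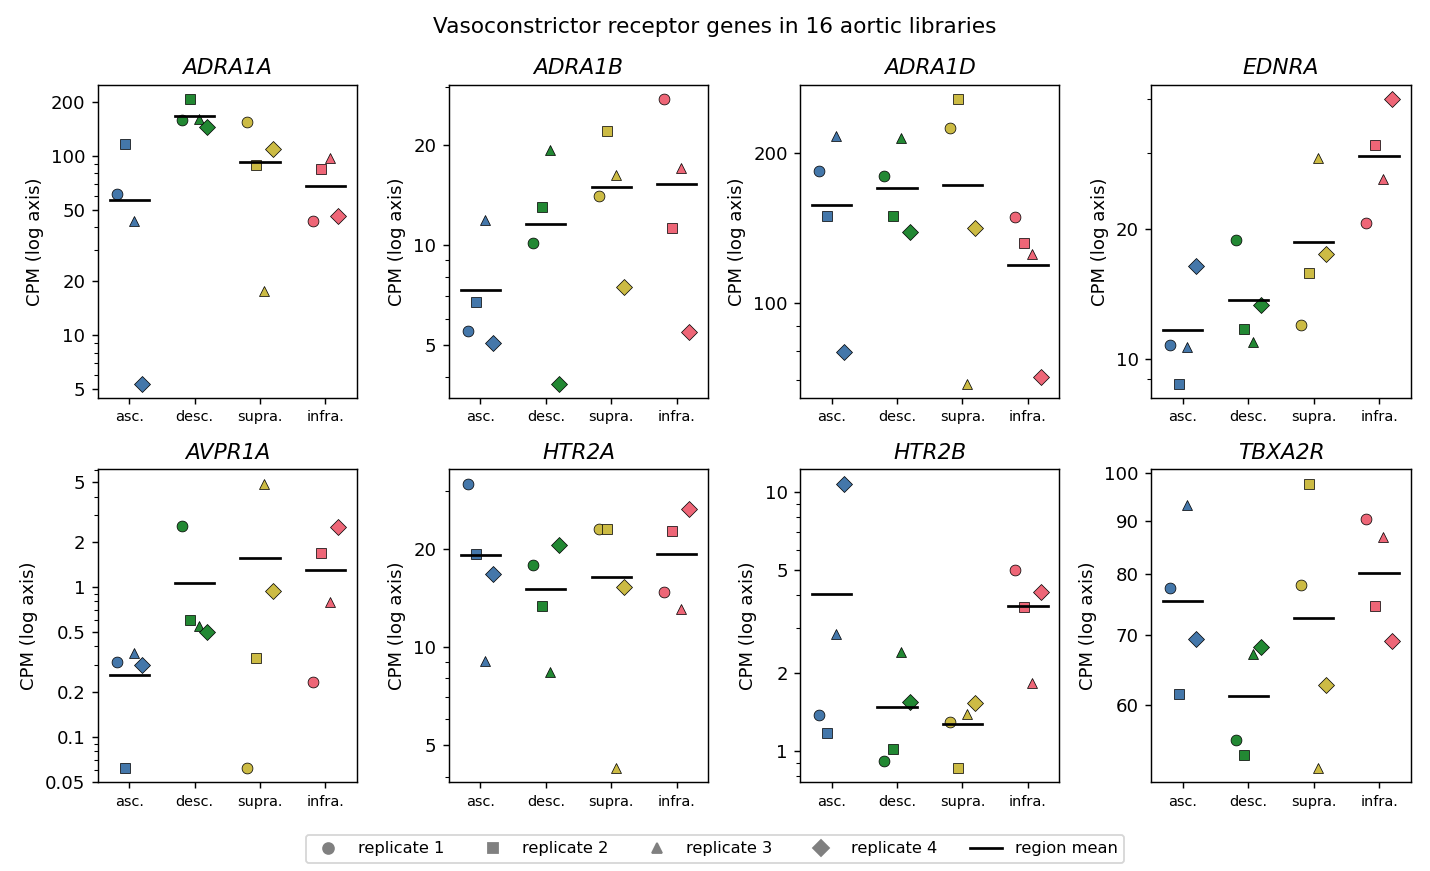
Normalised CPM (log axis) of the 8 receptor genes in the ascending, descending, suprarenal and infrarenal aorta. Each point is a library, its shape gives the replicate number and the bar is the mean of 4 libraries. EDNRA stepped up from a mean of 11.7 to 29.5 CPM, and ADRA1A had its highest and tightest libraries in the descending aorta.

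Counted over the members, 1 of 8 was called between infrarenal and ascending aorta, beside 3.49% of all genes tested. The other 5 pairs and the test of any difference gave 0 of 8 by edgeR. The share of all genes called was 2.02% for any difference, where DESeq2 called 1 member and 825 genes. It was 0.201% for infrarenal against suprarenal and 1.65% for infrarenal against descending, where DESeq2 called 1 member and 624 genes. It was 0.257% for suprarenal against ascending, 0.113% for descending against ascending and 0% for suprarenal against descending. At an unadjusted p below 0.05 by edgeR there were 2 of 8 members for any difference (9.61% of all genes), 2 for infrarenal against suprarenal (5.76%), 1 for infrarenal against descending (13.8%) and 2 for infrarenal against ascending (12.7%). The counts were 3 for suprarenal against ascending (5.5%), 2 for descending against ascending (6.74%) and 0 for suprarenal against descending (1.66%). DESeq2 called no member in the 3 pairs without the infrarenal region or between infrarenal and suprarenal, and limma voom called EDNRA between infrarenal and ascending and no member elsewhere.

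Pairs of regions whose libraries did not overlap were seen for 3 of 8 members between infrarenal and descending aorta, against 10.1% of all genes. EDNRA and TBXA2R were higher in the infrarenal libraries there, and ADRA1A lower. The counts were 1 of 8 for infrarenal against ascending (EDNRA, background 7.19%), 1 of 8 for infrarenal against suprarenal (HTR2B, background 2.43%) and 2 of 8 for descending against ascending (ADRA1A and AVPR1A, background 11.8%). They were 0 of 8 for suprarenal against descending (background 1.8%) and for suprarenal against ascending (background 3.82%). Each of these counts rests on 3 genes or fewer.

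Taken over the 8 members, median log2 differences were 0.08 for infrarenal minus suprarenal, 0.37 for infrarenal minus descending and 0.17 for infrarenal minus ascending, beside medians of -0.0034, 0.02 and 0.05 over all tested genes. For the pairs without the infrarenal region they were 0.19 (suprarenal minus descending), 0.41 (suprarenal minus ascending) and 0.17 (descending minus ascending), beside 0.01, 0.01 and -0.0076 over all genes. For the members, the median size of a difference, whatever its sign, was largest between suprarenal and ascending aorta, at 0.69, where it was 0.18 over all genes. In the remaining pairs it was 0.31 to 0.51 for the members and 0.16 to 0.30 over all genes. Between suprarenal and ascending aorta no member was called. The largest differences there were of AVPR1A (2.54) and HTR2B (-1.67), which had few counts.

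**Figure D2:**
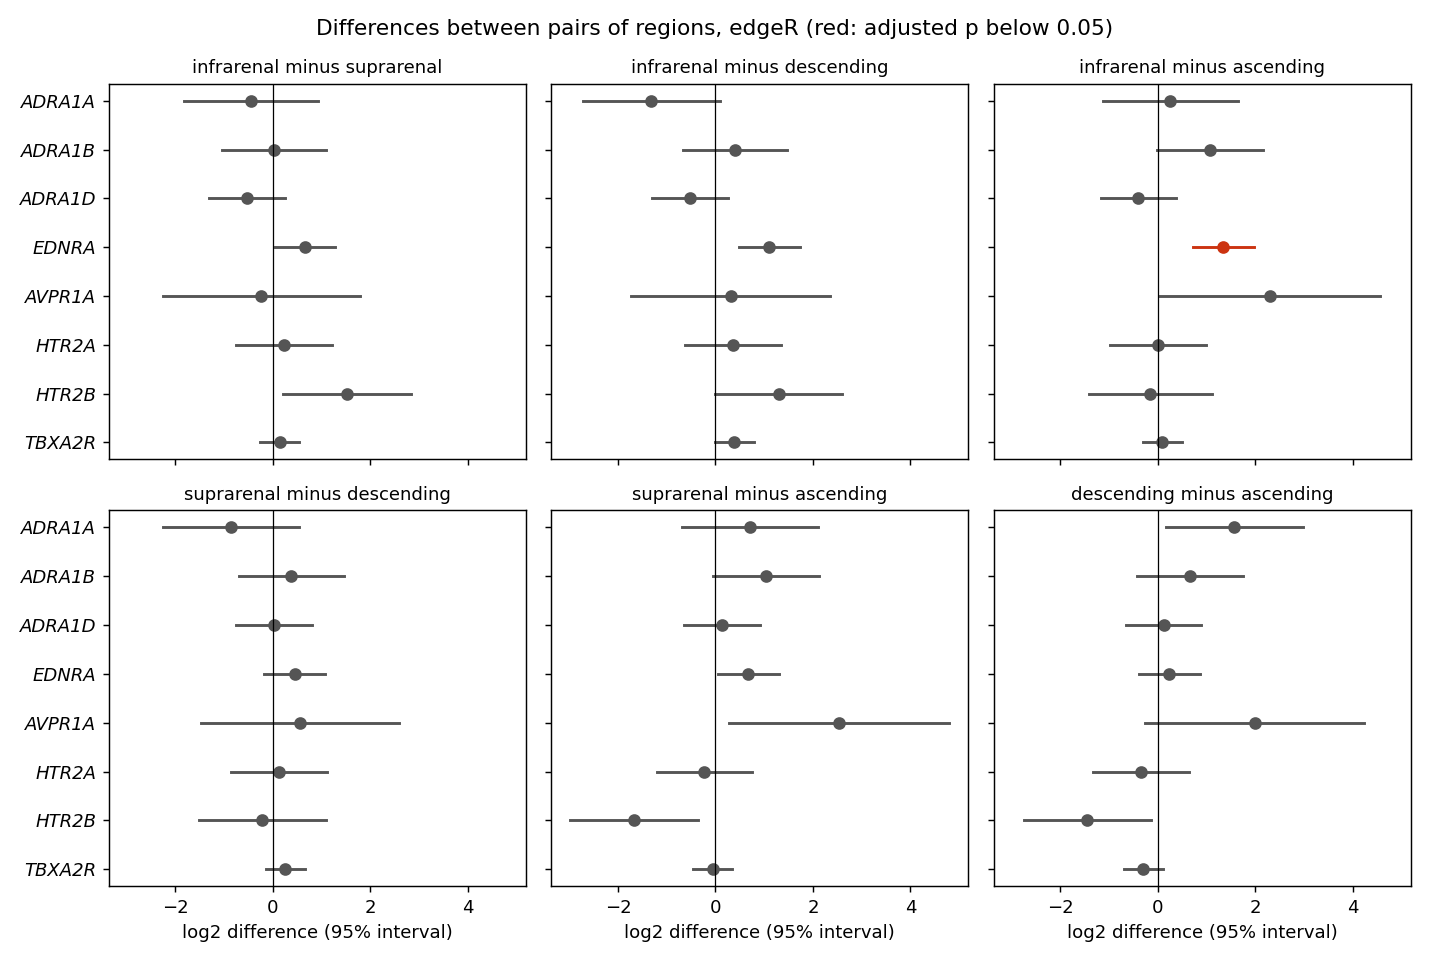
Log2 differences of the 8 receptor genes for each of the 6 pairs of regions, with 95% intervals from edgeR. Only the EDNRA difference between infrarenal and ascending aorta (1.34) passed an adjusted p of 0.05. Intervals were narrow for TBXA2R and wide for AVPR1A.

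Among the alpha-1 adrenergic receptors, which carry the contractile response to noradrenaline from sympathetic nerves, ADRA1A varied most. ADRA1A (GeneID 102126453) was at 61.7, 116, 43.6 and 5.37 CPM in ascending libraries 1 to 4 (56.7 ± 46.1, n = 4) and at 159, 208, 161 and 146 CPM in the descending ones (168 ± 27.3, n = 4). Suprarenal libraries held 154, 89.4, 17.6 and 109 CPM (92.6 ± 56.9, n = 4) and infrarenal libraries 43.5, 84.3, 97.0 and 46.3 CPM (67.8 ± 27.0, n = 4). All 4 descending libraries lay above all ascending and all infrarenal ones, while the highest suprarenal library reached into the descending range. From the lowest library, ascending 4, to the highest, descending 2, the span was 38.7-fold.

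Descending minus ascending ADRA1A was 1.57 on the log2 scale (95% interval 0.16 to 2.98, edgeR adjusted p = 0.691), and infrarenal minus descending was -1.31 (95% interval -2.71 to 0.09, adjusted p = 0.389). Neither was called. In the order ascending, infrarenal, suprarenal, descending, infrarenal minus ascending was 0.26, infrarenal minus suprarenal -0.45 and suprarenal minus descending -0.86 on the log2 scale, each with an interval that spanned 0. The lowest ADRA1A values of the series were in ascending 4 and suprarenal 3, the libraries with the fewest smooth muscle marker counts. Leaving them out with infrarenal 1 gave an infrarenal minus descending difference of -1.15 (adjusted p = 0.0751) and a descending minus ascending difference of 1.18 (adjusted p = 0.117). The part of tissue make-up in the ADRA1A levels was not tested.

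ADRA1D, the subtype best known for contraction of the aorta in rodents, had close means in the first 3 regions, with wide scatter between libraries. ADRA1D (GeneID 102128906) was at 184, 149, 216 and 79.8 CPM in ascending libraries (157 ± 58.4, n = 4) and at 180, 149, 214 and 139 CPM in descending ones (170 ± 33.9, n = 4). Suprarenal libraries held 224, 256, 69.0 and 142 CPM (173 ± 84.4, n = 4) and infrarenal libraries 149, 132, 125 and 71.1 CPM (119 ± 33.6, n = 4). The regions overlapped in all 6 pairs, and ascending 4, suprarenal 3 and infrarenal 4 were the lowest libraries.

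For ADRA1D the infrarenal region had the lowest mean, but infrarenal minus suprarenal was -0.54 (95% interval -1.31 to 0.24, edgeR adjusted p = 0.930) and infrarenal minus ascending -0.40 (95% interval -1.18 to 0.38, adjusted p = 0.778). Suprarenal minus descending was 0.02 (95% interval -0.75 to 0.80). That interval still leaves room for a change of 0.75 either way.

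ADRA1B, the remaining alpha-1 subtype with a wide distribution in vessels, heart and liver, had region means in the order of EDNRA with far more scatter. Its suprarenal and infrarenal means were nearly equal. ADRA1B (GeneID 102126794) was at 5.51, 6.73, 11.9 and 5.07 CPM in ascending libraries (7.31 ± 3.16, n = 4) and at 10.1, 13.0, 19.3 and 3.82 CPM in descending libraries (11.6 ± 6.42, n = 4). It was at 14.1, 22.1, 16.2 and 7.50 CPM in suprarenal (14.998 ± 6.05, n = 4) and at 27.5, 11.3, 17.0 and 5.49 CPM in infrarenal libraries (15.3 ± 9.40, n = 4). All pairs of regions overlapped. Infrarenal minus ascending was 1.07 (95% interval -0.02 to 2.15, edgeR adjusted p = 0.413) and was 0.48 without the 3 libraries named above (adjusted p = 0.639). Without them infrarenal minus suprarenal was -0.38 and infrarenal minus descending -0.04, so the order was not kept in that fit. It left out the highest infrarenal (27.5 CPM) and the lowest ascending (5.07 CPM) ADRA1B value. The fit therefore cannot decide whether the order holds.

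The counts of the 3 alpha-1 subtypes were also set against their sum in each library, a ratio that does not depend on how libraries are scaled. It is a share of counts and not of molecules, since lengths were not used. ADRA1D held 74.0% ± 14.2 of these counts in the ascending, 48.6% ± 6.06 in the descending, 62.2% ± 7.29 in the suprarenal and 59.0% ± 6.37 in the infrarenal libraries (SD, n = 4 each). ADRA1A held 22.3% ± 15.6, 48.3% ± 6.60, 30.7% ± 12.0 and 33.8% ± 9.44 in the same order. The share of ADRA1B was smaller, from a mean of 3.16% ± 1.48 in the descending to 7.26% ± 3.69 in the infrarenal libraries. Between the regions the descending aorta had the ADRA1A and ADRA1D counts nearest to balance, with a log2 ratio of ADRA1D to ADRA1A of 0.01 ± 0.38, against 2.03 ± 1.47 in the ascending, 1.10 ± 0.77 in the suprarenal and 0.85 ± 0.63 in the infrarenal aorta. These ratios were not tested. The largest ADRA1D share, 88.4%, was in ascending 4.

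**Figure D3:**
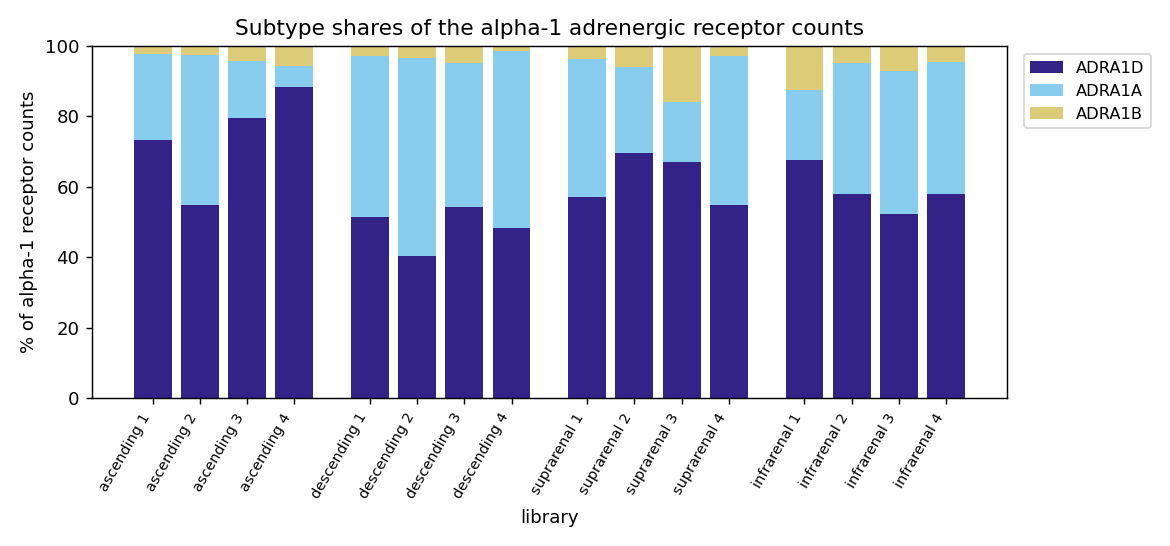
Share of ADRA1D, ADRA1A and ADRA1B counts (% of their sum, 1 bar per library). ADRA1D and ADRA1A were near balance in the 4 descending libraries, with 40.3% to 54.3% for ADRA1D, and the ADRA1D share was 54.9% to 88.4% in the ascending libraries.

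AVPR1A, through which vasopressin constricts vessels, was counted so rarely that its levels are imprecise. Ascending libraries held 5, 1, 6 and 5 counts of AVPR1A (GeneID 102138860), or 0.313, 0.0617, 0.363 and 0.302 CPM (0.260 ± 0.135, n = 4). Descending libraries held 42, 10, 9 and 9 counts (2.57, 0.602, 0.546 and 0.499 CPM), suprarenal libraries 1, 7, 77 and 16 counts (0.0619, 0.335, 4.89 and 0.945 CPM) and infrarenal libraries 3, 28, 12 and 44 counts (0.231, 1.69, 0.786 and 2.49 CPM). All ascending libraries were below all descending ones, while suprarenal and infrarenal libraries spanned both.

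No AVPR1A difference was called. Suprarenal minus ascending was 2.54 (95% interval 0.28 to 4.79, edgeR adjusted p = 0.763), but 0.76 without suprarenal 3 (adjusted p = 0.929), the library with 77 counts. For the other regions, infrarenal minus ascending was 2.30 (95% interval 0.05 to 4.55, adjusted p = 0.379) and descending minus ascending 1.98 (95% interval -0.27 to 4.23, adjusted p = 0.778). The highest AVPR1A values were in suprarenal 3 and descending 1. Both libraries were also high in adipocyte markers, at 3057 and 3517 CPM summed over 7 of 7 with counts, but infrarenal 3 was as high in them (3786 CPM) with 0.786 CPM of AVPR1A. The part of adipocytes in the AVPR1A levels was not tested.

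HTR2A, the main contractile serotonin receptor of large arteries, had nearly the same mean at both ends of the aorta. HTR2A (GeneID 101925599) was at 31.6, 19.2, 9.08 and 16.8 CPM in ascending (19.2 ± 9.36, n = 4) and at 17.8, 13.4, 8.37 and 20.5 CPM in descending libraries (15.01 ± 5.31, n = 4). Suprarenal libraries held 23.0, 23.0, 4.25 and 15.2 CPM (16.4 ± 8.86, n = 4) and infrarenal libraries 14.7, 22.6, 13.0 and 26.5 CPM (19.2 ± 6.42, n = 4). All pairs of regions overlapped. The infrarenal minus ascending difference was 0.01, with a 95% interval of -0.97 to 0.99 that does not show the regions to be alike, and the adjusted p for any difference was 0.978.

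HTR2B, a serotonin receptor also found on endothelium and fibroblasts, had few counts and ran differently. HTR2B (GeneID 102123932) was at 1.38, 1.17, 2.85 and 10.8 CPM in ascending libraries (4.05 ± 4.56, n = 4), at 0.916, 1.02, 2.43 and 1.55 CPM in descending (1.48 ± 0.689, n = 4) and at 1.30, 0.861, 1.40 and 1.54 CPM in suprarenal libraries (1.27 ± 0.291, n = 4). Infrarenal libraries held 5.01, 3.61, 1.83 and 4.13 CPM (3.65 ± 1.34, n = 4), all above all suprarenal ones. The ascending mean rested on library 4, the only ascending library above the infrarenal range, which also had the highest summed mesothelial markers of the series (1006 CPM over 6 of 6 with counts). Ascending 4 also had the highest ascending endothelial sum (1872 CPM). Suprarenal 3, with the highest endothelial sum of all libraries (3194 CPM), had 1.40 CPM of HTR2B. The part of cell types in the HTR2B levels was not tested.

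Infrarenal minus suprarenal HTR2B was 1.52 (95% interval 0.21 to 2.82, edgeR adjusted p = 0.764), and the test of any difference gave an adjusted p of 0.385. In the reference annotation HTR2B overlaps PSMD1, a proteasome subunit at 60.1 to 71.6 CPM by region, and the strand setting of the counting was not given, so reads of the 2 genes cannot be told apart with certainty. The log2 ratio of HTR2B to HTR2A counts was -2.70 ± 1.85, -3.34 ± 1.08, -3.42 ± 1.35 and -2.42 ± 0.58 from the ascending to the infrarenal region (n = 4 each). Those ranges overlap throughout.

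TBXA2R, the receptor for thromboxane A2, was the steadiest member, with a 1.87-fold span over all 16 libraries. TBXA2R (GeneID 102131732) was at 77.6, 61.5, 93.2 and 69.4 CPM in ascending libraries (75.4 ± 13.6, n = 4) and at 55.5, 53.7, 67.2 and 68.2 CPM in descending ones (61.2 ± 7.60, n = 4). Suprarenal libraries held 78.2, 97.7, 52.2 and 62.7 CPM (72.7 ± 19.8, n = 4) and infrarenal libraries 90.3, 74.6, 86.9 and 69.0 CPM (80.2 ± 10.1, n = 4). Infrarenal and descending libraries did not overlap, by a narrow margin of 69.0 against 68.2 CPM. That difference was 0.39 (95% interval -0.01 to 0.79, edgeR adjusted p = 0.373), and infrarenal minus ascending was 0.09 (95% interval -0.31 to 0.49).

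For 2 members the low values fell on the same library number in every region. ADRA1B was lowest in number 4 of all 4 regions, with a mean of 5.47 CPM against 14.3, 13.3 and 16.1 CPM in numbers 1 to 3. HTR2A was lowest in number 3 of all 4 regions, with a mean of 8.69 CPM against 21.8, 19.5 and 19.8 CPM in numbers 1, 2 and 4. The same number was lowest in all regions for 7.8% of all tested genes. The labels do not say what a number stands for.

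An edgeR test of a difference among numbers, with region in the model, was added after this was seen. It called 0 of 8 members, beside 4.46% of all genes, with adjusted p of 0.0816 for ADRA1B and 0.0770 for HTR2A. Without infrarenal 1 both passed (0.0142 and 0.0200), and without suprarenal 3 ADRA1D passed (0.0371). Without the 3 libraries of different make-up ADRA1B (0.000485), HTR2A (0.0112) and ADRA1D (0.0251) did. Calls over all genes rose as well, from 711 to 1100 without infrarenal 1 and to 2542 without the 3 libraries. The ADRA1B and HTR2A values had prompted the test. Infrarenal 1 held the highest ADRA1B value of the series (27.5 CPM) and suprarenal 3 the lowest ADRA1D value (69.0 CPM). The passes without these libraries therefore add no support for a difference by number. EDNRA showed no such order, with 3 different numbers lowest in the 4 regions and an adjusted p of 0.694.

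**Figure D4:**
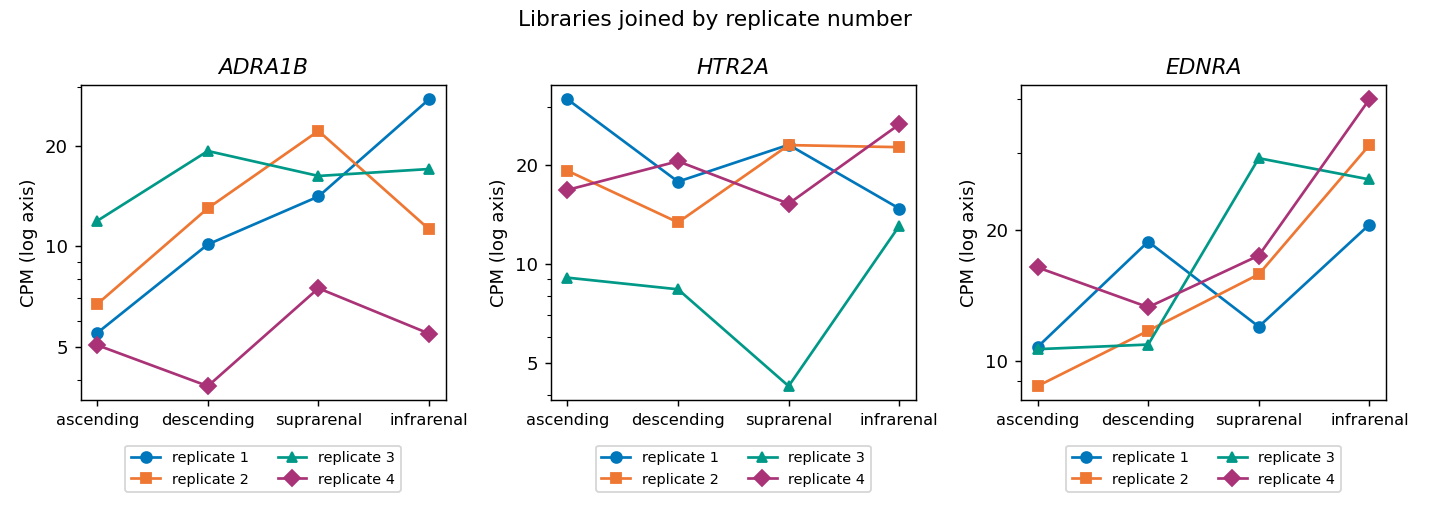
Normalised CPM (log axis) of ADRA1B, HTR2A and EDNRA by region, with libraries of the same replicate number joined as a guide to the eye. Number 4 was lowest for ADRA1B and number 3 for HTR2A in each region, while the lines of EDNRA cross.

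Of 25 other vasoconstrictor receptors, 22 were tested, and 2 rose against both thoracic regions, where 3.49% (ascending) and 1.65% (descending) of all genes were called: S1PR3, a receptor for sphingosine-1-phosphate, and P2RX1, a cation channel opened by ATP from sympathetic nerves. S1PR3 was at 17.2 ± 6.71, 26.9 ± 13.2, 61.3 ± 41.7 and 201 ± 52.9 CPM from the ascending to the infrarenal region (SD, n = 4). Its infrarenal minus ascending difference was 3.55 (edgeR adjusted p = 0.000596) and infrarenal minus descending 2.90 (adjusted p = 0.00463), both called under all 25 alternatives. P2RX1 was at 2.62 ± 1.46, 4.53 ± 3.49, 35.5 ± 50.8 and 190 ± 58.1 CPM. Its differences were 6.18 (adjusted p = 0.00383) and 5.39 (adjusted p = 0.0113), and 2 of 25 alternatives took the infrarenal minus descending one past the threshold, with a highest adjusted p of 0.0511 (without descending 3 or descending 4). The list's medians were 0.48 and -0.04 for these pairs, beside 0.05 and 0.02 over all genes, and no member of it was called in the other 4 pairs by edgeR with all 16 libraries. Infrarenal minus suprarenal S1PR3 was 1.71 (edgeR adjusted p = 0.215), called by DESeq2 (0.0148) and without suprarenal 2 (2.28, adjusted p = 0.0391). For P2RX1 it was 2.42 (adjusted p = 0.633), called without suprarenal 2 (4.19, adjusted p = 0.0465).

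Genes that make or clear the ligands had 14 of 21 tested, and 1 fell, beside the same shares of all genes. PTGS1, the constitutive cyclooxygenase that makes the precursor of thromboxane and prostacyclin, was at 192 ± 57.4, 148 ± 43.7, 127 ± 38.0 and 45.9 ± 22.4 CPM from the ascending to the infrarenal region (n = 4). Infrarenal minus ascending PTGS1 was -2.06 (edgeR adjusted p = 0.00285), called under all 25 alternatives. Infrarenal minus descending was -1.69 (adjusted p = 0.0164), with the call lost without descending 1, descending 2, infrarenal 2 or infrarenal 4 (adjusted p up to 0.0667). Infrarenal minus suprarenal was -1.47 (adjusted p = 0.106), called by DESeq2 (0.00358) and without infrarenal 3 (0.0378).

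The list's medians were -0.03 for infrarenal minus ascending and -0.02 for infrarenal minus descending. For the ligand side of EDNRA, EDN1, which encodes endothelin-1, had an infrarenal minus ascending difference of -0.64 (edgeR adjusted p = 0.844), and ECE1, which cuts its precursor to the active form, one of 1.13 (adjusted p = 0.188). Neither was called, and both genes were chosen after their values were seen.

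Downstream of the receptors, of 20 genes for G proteins and phospholipase C, PLCE1, a phospholipase C that also responds to small GTPases, fell from 56.9 ± 6.25 CPM in the descending to 29.6 ± 5.21 CPM in the infrarenal aorta, a log2 difference of -0.94 (edgeR adjusted p = 0.0390), where 1.65% of all genes were called. That list's medians were 0.04 for infrarenal minus ascending and -0.03 for infrarenal minus descending. In the ascending aorta PLCE1 was at 34.4 ± 6.48 CPM, near the infrarenal level. Its infrarenal minus ascending difference was -0.21 (edgeR adjusted p = 0.8065) and descending minus ascending 0.73 (adjusted p = 0.359), neither called. The PLCE1 call was lost in 14 of 25 alternatives, including each of the fits without 1 descending or 1 infrarenal library (adjusted p up to 0.113). Of 16 genes for RhoA signalling and myosin phosphatase none was called in any pair by edgeR, and the medians were 0.08 for infrarenal minus ascending and 0.07 for infrarenal minus descending. An unadjusted p below 0.05 was found for 1 of them in the first of these pairs (12.7% of all genes), for 2 in the other (13.8%) and for 0 in the remaining 4.

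RGS2, which speeds the switching off of Gq, was the only one called among 14 tested RGS and desensitization genes, beside 3.49% (against ascending) and 1.65% (against descending) of all genes. It was at 23.0 ± 10.4, 10.8 ± 3.33, 17.0 ± 8.80 and 68.7 ± 26.7 CPM from the ascending to the infrarenal region. RGS2 rose by 2.67 against the descending aorta (edgeR adjusted p = 0.00427, called in all 25 alternatives) and by 1.58 against the ascending aorta (adjusted p = 0.0429). The latter call was lost in 10 alternatives (adjusted p up to 0.132), among them the fits without ascending 1, 2 or 3, descending 2 or 4, or infrarenal 1, 2 or 3. Infrarenal minus suprarenal RGS2 was 2.01 (adjusted p = 0.0618) and was called in 6 of 25 alternatives: with no filter (0.0455), by DESeq2 (0.000286), with a replicate block (0.0389), and without ascending 4 (0.0448), suprarenal 2 (0.0263) or infrarenal 4 (0.0494). Over the list the medians were 0.42 for infrarenal minus ascending and 0.02 for infrarenal minus descending.

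Receptors that relax smooth muscle had 18 of 19 tested. ADORA2B, an adenosine receptor that raises cyclic AMP and the 1 gene of the list called, fell from 5.39 ± 1.24 CPM in the ascending to 1.78 ± 0.441 CPM in the infrarenal aorta, a log2 difference of -1.59 (edgeR adjusted p = 0.0243), where 3.49% of all genes were called. That call was lost in 6 of 25 alternatives, among them without ascending 1 or 3 or infrarenal 2 or 3 (adjusted p up to 0.0909). Infrarenal minus descending ADORA2B was -1.46 (adjusted p = 0.0670), called with library totals alone (0.0492), by DESeq2 (0.00802), with a replicate block (0.0273) and without suprarenal 2 (0.0300). The list's medians were 0.50 for infrarenal minus ascending and 0.47 for infrarenal minus descending, opposite in sign to ADORA2B. PLCE1 and ADORA2B were named after their values were seen.

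**Figure D5:**
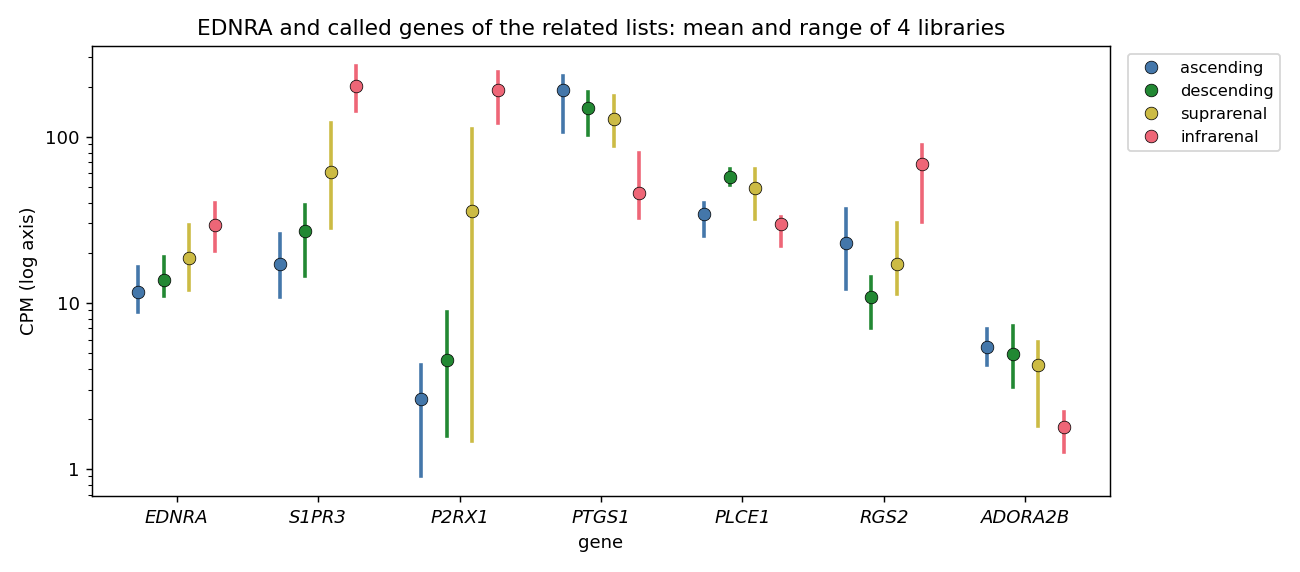
Mean (point) and range (line) of normalised CPM (log axis) over 4 libraries per region for EDNRA and the 6 called genes of the related lists. S1PR3, P2RX1, RGS2 and EDNRA had their highest means in the infrarenal aorta, and PTGS1, PLCE1 and ADORA2B their lowest.

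Genes whose log2 CPM, centred on its mean, tracked EDNRA most closely over the 16 libraries were NR2F2, B3GNT2 and MYLIP, with mean absolute differences of 0.19, 0.21 and 0.23. Their region means ran in the order of EDNRA, which follows from choosing them by likeness and is no separate result. B3GNT2 was at 9.70 ± 3.97, 13.6 ± 3.23, 18.3 ± 3.22 and 28.1 ± 5.57 CPM from the ascending to the infrarenal aorta. For ADRA1A the nearest gene was RGS5, a regulator of G-protein signalling abundant in mural cells, at 0.49, with region means of 1758 ± 667, 4565 ± 433, 4133 ± 2601 and 2998 ± 1071 CPM. These likenesses are descriptions over libraries that share regions and make-up.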

How the data were processed

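The authors deposited raw counts per gene for 16 libraries, keyed by NCBI GeneID. Per the labels' protocols, 1 ug of total RNA from a fibrous tissue kit went into NEBNext Ultra libraries. The submitters' processing notes name featureCounts 1.5.0-p3, HISAT2 2.0.5 and fastp, and give no strand setting, annotation or build (not given in the sources used here). Symbols came from the RefSeq table of assembly T2T-MFA8v1.1, used for names and overlaps only, and 24609 of 32846 rows had one.

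Counts were fitted in edgeR 4.0.16 (R 4.3.3) with TMM factors, filterByExpr (minimum count 10, minimum total 15), all 16 libraries and region as the only factor. Quasi-likelihood F tests were made of any difference among regions and of the 6 pairs, and Benjamini-Hochberg adjusted p-values below 0.05 over all 15926 tested genes were called. Standard errors were taken as the log2 difference over the square root of F, and 95% intervals from t with 12 residual plus 3.46 prior degrees of freedom. Ratios of receptor counts had 0.5 added to each count. No library repeated another of its region within sampling noise. The fit was also run on simulated counts, with independent libraries, a fixed dispersion and changes in the infrarenal libraries only. Such counts cannot show how it handles libraries linked by number or of different make-up.

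Alternatives were RLE size factors, library totals, no filter, DESeq2 1.42.0, voom of limma 3.58.1, a filter of 4 or more libraries at a CPM of 1 or more, a replicate block, only the 8 libraries of a pair, and each library left out. A fit without infrarenal 1, ascending 4 and suprarenal 3, and the test among replicate numbers, were added after the data were seen. Members and lists were chosen with earlier results of these data known. All members were to be named, with up to 4 genes of each list that were called in the test of any difference, and the 3 nearest genes of any member called in it. No member was, so the nearest genes given were chosen after their values were seen. A planned ratio of EDNRB to EDNRA was not made. No sequences are shown.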

Additional observations from a re-analysis of the deposited data

Results flagged for a closer look

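Each member's CPM and each subtype ratio was checked for a library far from the other 3 of its region, in 48 groups of 4. A library was marked where its gap to the nearest one, as a part of the group's range, passed Dixon's 95% critical value. Chance marks about 1 group in 20, and 2 groups were marked. AVPR1A was at 2.57 CPM in descending 1, where the nearest descending library had 0.602 CPM, a gap of 0.950 of the range. The log2 ratio of HTR2B to HTR2A was -1.55 in infrarenal 1 against -2.64 in the nearest infrarenal library, a gap of 0.865 of the range. Infrarenal 1 is the library with the TMM factor of 0.736, and the ratio does not depend on that factor.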

How the results depend on the processing

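EDNRA was the only member called in any pair under any alternative, and no called value changed sign. Counts of called members moved as follows. For any difference the count was 1 with DESeq2, 1 without the 3 libraries of different make-up and 0 to 1 without 1 library (1 without ascending 4, descending 1, suprarenal 1, suprarenal 3 or infrarenal 1). For infrarenal against descending it was 1 with DESeq2, 1 without those 3 libraries and 0 to 1 without 1 library (1 without suprarenal 3 or infrarenal 1). For infrarenal against suprarenal it was 1 without those 3. For infrarenal against ascending it was 0 with library totals alone and 0 to 1 without 1 library. By replicate number, 3 members were called without those 3 libraries and 0 to 2 without 1 library (2 without infrarenal 1).

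Counts over all genes moved more. For any difference, with 322 in the report's fit, DESeq2 called 825, the fit without the 3 libraries 1128, and leaving out 1 library gave 213 to 477. For infrarenal against descending (263) the values were 624, 653 and 132 to 326, and for infrarenal against ascending (556) 1004, 2099 and 345 to 1001, with 291 from only the 8 libraries of the pair. For infrarenal against suprarenal (32), DESeq2 called 167, the fit without 3 libraries 241, library totals 52, no filter 51, limma voom 15 and the 8 libraries 0, and leaving out 1 gave 3 to 52. For suprarenal against ascending (41) they were 184 with DESeq2, 113 without 3, 22 from the 8 libraries and 19 to 66 without 1. For descending against ascending (18) they were 177, 141, 30 and 7 to 34, with 9 by limma voom. Suprarenal against descending stayed at 0 throughout, with 264 genes at an unadjusted p below 0.05. By replicate number, 711 genes became 2542 without the 3 libraries and 372 to 1100 without 1. The cause of these shifts was not tested.

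The replicate block raised the counts over all genes to 532 (any difference), 84, 432, 843, 76 and 62 (infrarenal against suprarenal, descending and ascending, then suprarenal and descending against ascending), and left EDNRA called between infrarenal and ascending aorta (log2 difference 1.35, edgeR adjusted p = 0.0177) with no other member called. Of the genes named it ended the PLCE1 call (adjusted p = 0.0556) and added RGS2 between infrarenal and suprarenal (0.0389) and ADORA2B between infrarenal and descending aorta (0.0273). Of 24 pairs of libraries with the same number, 19 had deviations correlated above 0.1 (range -0.173 to 0.575), and 15 of 16 libraries were on average nearest to their own number. This is a hint from the data and not the design, and the report's fit leaves the number out.

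Depth limits AVPR1A, with 1 to 77 counts a library, and HTR2B.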
